A study of Mus musculus with 20 samples.

Results

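Gene expression in the amygdala late after contextual fear (CF) training was compared with expression early after training. The late samples were those taken at 48 hr and at 1 wk, and the early samples those taken at 0 hr and at 1 hr. With 1 array per genotype and time point this gave 4 late and 4 early arrays, which are 8 of the 20 arrays of the series. The baseline arrays and the hippocampal arrays did not enter the comparison. Each array carried RNA pooled from 5 to 10 male C57BL/6 mice, 2 months of age, taken in micropunches of the amygdala. The WT mice were C57BL/6 controls that were not littermates of the DKO mice. The DKO mice lacked AC1 and AC8, the adenylyl cyclases stimulated by Ca2+, and came from matings kept on doxycycline, so that a mouse could carry 1 transgene, either tetop-AC8 or CaMKII-tTA, or none. All 8 groups had received 1 shock of 0.7 mA for 2 sec during training, and the 1 wk mice of both genotypes also went through a 5 min testing trial just before they were killed. The 1 wk arrays therefore hold tissue taken soon after a return to the training context, while the 48 hr arrays do not. Because no condition was repeated, the time points within late and within early served as replicates, so the spread used for testing mixes differences between time points with differences between pools of mice.

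Neurons that fire strongly during learning switch on immediate early genes within minutes. Calcium entry raises cAMP through AC1 and AC8, protein kinase A and other kinases phosphorylate the factor CREB, and CREB binds cAMP response elements in promoters such as those of Fos, Nr4a3 and Dusp1. Products of this first wave, many of them transcription factors, then act on effector genes at synapses, and most of these transcripts return to their resting level within hours. The amygdala joins the context to the shock, and its neurons are known for such a response after fear training.

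Promoters of members described below are shown first, because the cAMP response element is a sequence through which cAMP is known to act on genes. They run from 250 bases before to 50 bases after the start of the gene, 5′ to 3′ on the strand of the gene, from RefSeq on GRCm38.p6. Capitals mark matches on either strand to the palindromic cAMP response element TGACGTCA, to its half-site TGACG, or to the heat shock element GAANNTTC. Pcsk1 lies at chr13:75089607-75089906 on the plus strand, Dusp1 at chr17:26508423-26508722 on the minus strand, Nr4a3 at chr4:48045055-48045354 on the plus strand, and the stretch of Hspd1 at chr1:55087883-55088182 on the minus strand.
Pcsk1: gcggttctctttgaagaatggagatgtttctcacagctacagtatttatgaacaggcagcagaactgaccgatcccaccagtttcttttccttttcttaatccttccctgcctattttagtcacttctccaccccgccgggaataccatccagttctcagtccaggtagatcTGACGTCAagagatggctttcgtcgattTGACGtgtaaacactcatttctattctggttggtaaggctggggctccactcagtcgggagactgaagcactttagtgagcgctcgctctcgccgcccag
Dusp1: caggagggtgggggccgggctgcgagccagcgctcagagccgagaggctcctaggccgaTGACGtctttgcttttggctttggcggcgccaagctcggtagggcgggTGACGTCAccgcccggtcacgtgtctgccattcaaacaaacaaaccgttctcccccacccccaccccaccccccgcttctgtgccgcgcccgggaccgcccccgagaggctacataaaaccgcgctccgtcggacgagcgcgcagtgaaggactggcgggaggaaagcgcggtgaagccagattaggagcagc
Nr4a3: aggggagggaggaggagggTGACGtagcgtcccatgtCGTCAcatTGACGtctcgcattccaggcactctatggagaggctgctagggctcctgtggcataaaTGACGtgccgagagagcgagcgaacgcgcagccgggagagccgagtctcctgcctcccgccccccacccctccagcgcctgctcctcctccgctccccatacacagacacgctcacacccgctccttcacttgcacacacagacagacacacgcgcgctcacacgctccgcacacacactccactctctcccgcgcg
Hspd1: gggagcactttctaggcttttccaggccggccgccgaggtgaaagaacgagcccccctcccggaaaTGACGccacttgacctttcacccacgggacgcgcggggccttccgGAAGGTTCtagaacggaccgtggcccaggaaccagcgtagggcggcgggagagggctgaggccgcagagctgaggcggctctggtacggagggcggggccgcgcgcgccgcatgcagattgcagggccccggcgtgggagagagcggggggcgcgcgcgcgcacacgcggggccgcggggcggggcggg
Pcsk1 and Dusp1 each held 1 palindromic element, which begins at position -78 of Pcsk1 and at -143 of Dusp1, counted from the start of the gene. Nr4a3 held 4 half-sites and no palindrome, and the stretch of Hspd1 held 1 heat shock element at -139. Hspd1 has 2 promoters, and the one not shown held 0 heat shock elements. Not every member holds each of these elements. The 2 promoters of Dnajb1 held 0 heat shock elements, though a half-site began at -11 in one of them. The 5 of Egr2 held 0 palindromes, though several of them held 2 half-sites each. The palindrome was present in 1.79% of 32851 promoters of the same length, the half-site in 20.8%, the heat shock element in 7.86% and the clock E-box CACGTG in 7.15%. These are matches of letters and say nothing of what is bound there.

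Levels are log2 RMA values of 28853 transcript clusters, the units of the Mouse Gene 1.0 ST array, and a difference of 1 is a doubling. The labels were borne out by Adcy8, the AC8 gene, at 6.94 to 7.15 on the 4 WT arrays and 5.46 to 5.80 on the 4 DKO arrays, and by Adcy1, the AC1 gene, at 7.97 to 8.38 in WT and 7.55 to 7.77 in DKO. Of the amygdala markers, Etv1 (9.64 to 10.19), Lypd1 (8.83 to 9.41), Nts (8.50 to 9.79), Prkcd (7.92 to 8.52) and Tac2 (7.20 to 8.52) stood above the array medians of 6.68 to 6.83. Rspo2 (6.82 to 7.28) was at or just above them, Crh (6.17 to 7.25) ran from below to above them, and Cyp26b1 (6.38 to 6.63) was below. The hippocampal markers Spink8 (8.60 to 9.58) and Wfs1 (7.93 to 8.61) also stood above the medians. Prox1 (6.51 to 7.46), Fibcd1 (6.75 to 7.19) and Dsp (6.49 to 7.15), of the same tissue, lay near them. The striatal marker Drd1 was at 8.60 to 9.19 on all arrays. The arrays correlated at 0.9865 to 0.9959 with each other. The spread of levels was not equal among them. The SD over all transcript clusters was lowest on the DKO 48 hr array (1.71) and highest on the WT 1 hr array (1.89), and the strongest of 5 equal groups of transcript clusters by level lay at a median of -0.25 from the mean of the 8 arrays on the former and 0.13 on the latter. The median late minus early change was 0.04 in the weakest of these groups and -0.12 in the strongest, and after a further quantile normalization of the 8 arrays, called the quantile scale here, it was 0.00 in both. The main lists below are therefore given on both scales. Fewer cells of a type and less RNA per cell cannot be told apart in any value here.

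**Figure D1:**
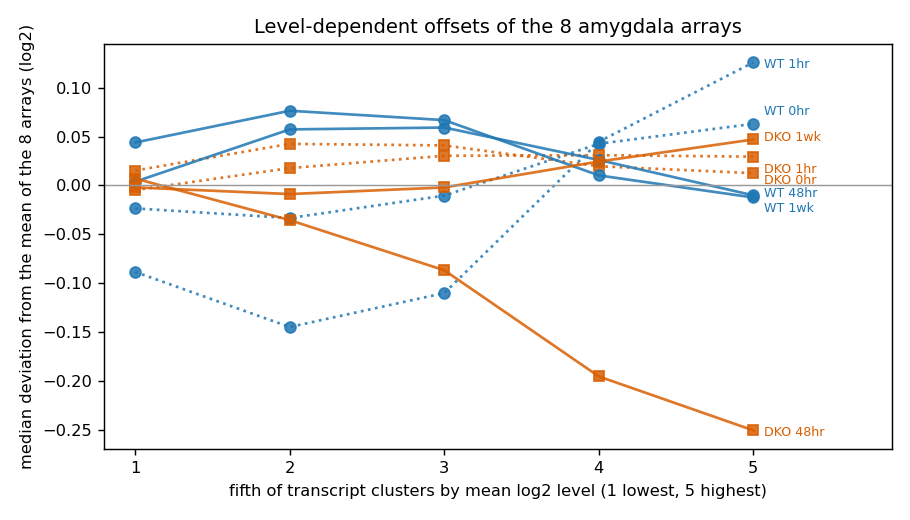
Median deviation from the mean of the 8 arrays (log2, vertical axis) for 5 equal groups of transcript clusters by mean level, 1 the weakest (horizontal axis), with 1 line per array, circles for WT, squares for DKO, solid lines for late and dotted lines for early arrays. In group 5 the DKO 48 hr array lies at -0.25 and the WT 1 hr array at 0.13.

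No transcript cluster passed the test. With genotype as covariate in limma and adjustment over all transcript clusters, 0 had a higher and 0 a lower late level (0.0% each) at an adjusted p of 0.05, the lowest adjusted p being 0.526. At an unadjusted p under 0.05 there were 749 higher (2.6%) and 1848 lower (6.4%). All 4 late arrays lay below all 4 early arrays in 920 transcript clusters (3.19%) and above them in 443 (1.54%). Over 19938 genes, with the transcript clusters of a gene averaged, these were 709 below (3.56%) and 273 above (1.37%), and on the quantile scale 473 (2.37%) and 398 (2.0%). Without the DKO 48 hr array the counts on the deposited scale were 747 below (3.75%) and 776 above (3.89%). The excess of genes lower late over genes higher late was thus absent without that array and small on the quantile scale. The median change over genes was -0.02, at 0.04 in WT and -0.09 in DKO. Everything named below is given as a level or a difference, none of which passed the adjusted limit unless it is said.

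The smallest p-value among genes lower late was that of Pcsk1, the convertase that cuts prohormones and proneuropeptides in secretory granules. Its level was 8.90 and 8.86 in WT and 8.77 and 8.73 in DKO at 0 hr and 1 hr, and 8.25 and 8.54 in WT and 8.19 and 8.32 in DKO at 48 hr and 1 wk. Every late array was below every early array, and the 48 hr arrays were the lowest. The change was -0.49 with a standard error of 0.09, at -0.48 in WT and -0.50 in DKO, and -0.37 on the quantile scale. The limma p was 6.7e-05 before adjustment and 0.526 after it.

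Larp4, which binds poly(A) tails of mRNA, had the largest difference among the 10 genes with the smallest p-values lower late. It was at 7.87 and 8.27 in WT and 7.95 and 7.74 in DKO early, and at 7.40 and 7.32 in WT and 7.22 and 7.66 in DKO late. The groups did not overlap, with the DKO 1 wk array closest to the early arrays, and the change was -0.56, at -0.71 in WT and -0.41 in DKO. All 3 transcript clusters of Larp4 had a change below 0, and 2 of them did not overlap. Ltn1, the ubiquitin ligase of stalled ribosomes, was at 9.02, 9.15, 8.77 and 8.74 early and 8.53, 8.49, 8.45 and 8.40 late in the order WT 0 hr, WT 1 hr, DKO 0 hr, DKO 1 hr and then WT 48 hr, WT 1 wk, DKO 48 hr, DKO 1 wk. Its change was -0.45. Its 16 transcript clusters ran from -0.48 to 0.01, and in 4 of them the late arrays lay below all early arrays. Ube2n, the conjugating enzyme of non-degradative ubiquitin chains, was in the same order at 9.0, 9.31, 8.85 and 8.99 early and at 8.62, 8.71, 8.36 and 8.64 late, a change of -0.45. Ubxn7, a p97 adaptor, was at 8.75, 8.84, 8.45 and 8.48 early and at 8.37, 8.33, 8.09 and 8.21 late, a change of -0.38. In all 3 genes the WT arrays were above the DKO arrays early, and no late array reached an early one.

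Beside a pair of microRNA genes given below, the other genes of this set were Taf1d, a subunit of the factor that recruits RNA polymerase I, with early levels of 6.35 to 6.68 and late levels of 5.85 to 6.10 and a change of -0.51, Eid3, at 6.49 to 6.64 early and 5.99 to 6.33 late and a change of -0.47, and the zinc finger gene Zfp763, at 6.59 to 6.85 early and 6.18 to 6.41 late and a change of -0.41. The 9 transcript clusters of Taf1d, of which 4 hold identical values, are 6 measurements. The other 5 overlapped, with changes of -0.21 to -0.10. Taf1d also hosts small nucleolar RNAs, so that probes in it can report more than its mRNA. Over the 10 genes the change ran from -0.56 to -0.38, from -0.54 to -0.26 on the quantile scale, from -0.71 to -0.39 in WT and from -0.55 to -0.32 in DKO. All 10 had late arrays below early arrays, a count that the choice by p-value largely fixes. In the hippocampus the same late minus early difference ran from -0.19 to 0.11 for them, and the difference between regions was not tested.

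Among the 10 genes with the smallest p-values and higher levels late, Sostdc1, a secreted antagonist of BMP and Wnt signalling, had the largest difference. Its level was 7.19 and 7.05 in WT and 7.44 and 7.89 in DKO early, and 7.65 and 8.35 in WT and 7.82 and 8.41 in DKO late. The DKO 1 hr array was above 2 of the late arrays, so the groups overlapped, and the change was 0.66, at 0.88 in WT and 0.45 in DKO. Sostdc1 also belongs to the choroid plexus list described below. Rdh7, a retinol dehydrogenase, was at 5.19 and 5.03 in WT and 5.14 and 4.82 in DKO early and at 5.61 and 5.61 in WT and 5.91 and 5.33 in DKO late. No late array of Rdh7 was as low as an early one, with a change of 0.57, but its level was in the weakest part of the array. Of the 10 genes 6 did not overlap, among them Htra4 (6.90 to 7.23 early, 7.23 to 7.57 late, change 0.42), Cblc (5.58 to 5.88 early, 5.97 to 6.18 late, change 0.39) and the laminin-binding integrin subunit gene Itga7 (6.13 to 6.33 early, 6.51 to 6.70 late, change 0.33). The set also held the olfactory receptor gene Olfr272 and the pheromone receptor gene Vmn2r60. The limma p of the 10 genes ran from 0.00026 to 0.0019 and the adjusted p was 0.526 for each.

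**Figure D2:**
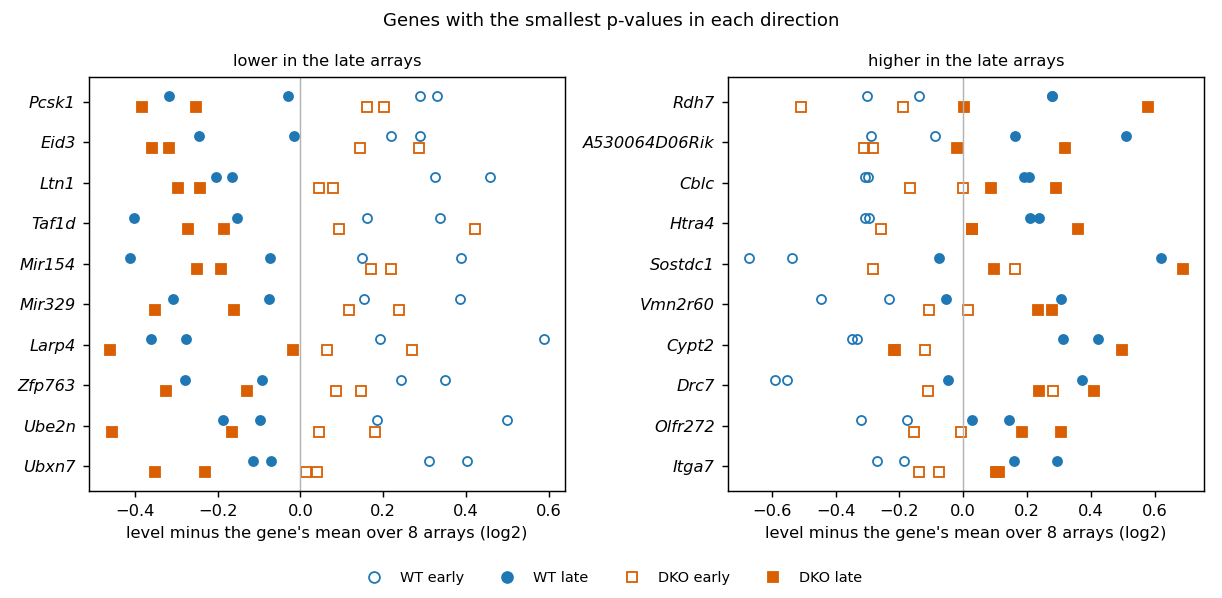
Level of each gene on each array minus its mean over the 8 arrays (log2, horizontal axis) for the 10 genes with the smallest p-values lower late (left) and higher late (right), with circles for WT, squares for DKO, open symbols for early and filled symbols for late arrays. On the left every filled symbol lies left of every open one in its row, while on the right Sostdc1, Vmn2r60, Cypt2 and Drc7 overlap.

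All 24 immediate early transcription factors of the list were measured, and 17 had a change below 0, against 55.2% of all genes. In 2 (8.33%) the late arrays lay below all early arrays, and in 0 above, against 3.56% and 1.37% of all genes. On the quantile scale 3 (12.5%) lay below, against 2.37%. The median change was -0.09, at -0.04 in WT and -0.15 in DKO, and it was the same (-0.09) on the quantile scale. The mean level of the list was 7.01 to 7.13 on the early arrays and 6.75 to 7.0 on the late arrays, with the DKO 48 hr array apart at the bottom and the other 3 late arrays at 6.96 to 7.0. Without that array the median was -0.04 and 2 genes (8.33%) lay below all early arrays, against 3.75% of all genes.

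Egr2, a zinc finger factor of the early growth response family and one of the genes followed up by RT-PCR in the study, had the largest difference of the list. It was at 7.74 and 8.33 in WT and 7.32 and 8.04 in DKO at 0 hr and 1 hr, and at 7.28 and 7.62 in WT and 6.95 and 7.14 in DKO at 48 hr and 1 wk. Within each genotype both late arrays were below both early arrays, the 1 hr array was the highest and the 48 hr array the lowest, while across genotypes the WT 1 wk array overlapped the DKO 0 hr array. The change was -0.61 with a standard error of 0.15, at -0.59 in WT and -0.64 in DKO and at -0.54 on the quantile scale, with a limma p of 0.0012 before and 0.526 after adjustment. Egr1, its close relative, was at 7.87 to 8.30 early and 7.58 to 8.0 late, a change of -0.18.

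Several members of other families lay in the same direction with smaller differences. Npas4, the neuron-specific factor induced by calcium entry, was at 6.65 and 6.96 in WT and 6.91 and 6.57 in DKO early and at 6.40 and 6.60 in WT and 6.42 and 6.42 in DKO late, a change of -0.31. The WT 1 wk array alone reached above the lowest early array. Nr4a2, an orphan nuclear receptor, was at 8.38 and 8.87 in WT and 8.49 and 9.11 in DKO early and at 8.51 and 8.38 in WT and 8.13 and 8.32 in DKO late. Its highest values were both at 1 hr, and the change was -0.38, at -0.18 in WT and -0.58 in DKO. Nr4a3, of the same family, was at 7.32 to 7.42 early and 6.99 to 7.28 late with no overlap and a change of -0.22, and Klf6 was at 7.80 to 7.87 early and 7.49 to 7.79 late with a change of -0.16. The gap between the groups was narrow for both. Fos was at 6.77 and 6.49 in WT and 6.72 and 6.83 in DKO early and at 6.46 and 6.72 in WT and 6.22 and 6.38 in DKO late, a change of -0.04 in WT and -0.48 in DKO. The groups overlapped for Fos, as they did for Jun (-0.29), Bhlhe40 (-0.29) and Nr4a1 (-0.15).

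Of 36 activity-induced effector genes 34 were measured, 26 had a change below 0, and in 6 (17.6%) the late arrays lay below all early arrays, against 3.56% of all genes. On the quantile scale it was also 6, against 2.37%. The median was -0.14, at -0.05 in WT and -0.20 in DKO, -0.10 on the quantile scale and -0.07 without the DKO 48 hr array, and the mean level was 7.69 to 7.77 early and 7.46 to 7.68 late. The 6 genes were Pcsk1, given above, Tiparp, Baz1a, Homer1, Dusp1 and Dusp6. Dusp1, the phosphatase that switches off MAP kinases, was at 7.39 and 7.43 in WT and 7.38 and 7.36 in DKO early and at 7.20 and 7.19 in WT and 7.01 and 7.14 in DKO late. The 4 early arrays lay between 7.36 and 7.43 and all late arrays lay below them, with a change of -0.25. Tiparp, a mono-ADP-ribosyltransferase, was at 7.99, 8.43, 8.03 and 8.35 early and 7.74, 7.67, 7.60 and 7.98 late (WT then DKO, each in order of time), highest at 1 hr in both genotypes, with a change of -0.45. Homer1, a scaffold of metabotropic glutamate receptors with a short form induced by activity, was at 9.38 to 9.67 early and 9.03 to 9.36 late, a change of -0.28, and its 1 transcript cluster does not separate the short from the long form. Dusp2 lay in the other direction, at 6.78 to 7.07 early and 7.09 to 7.29 late with no overlap and a change of 0.27. Arc was at 7.65 to 7.83 early and 7.40 to 7.81 late (-0.12), and Bdnf at 6.67 to 6.97 early and 6.62 to 6.88 late (-0.01), so that both overlapped.

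**Figure D3:**
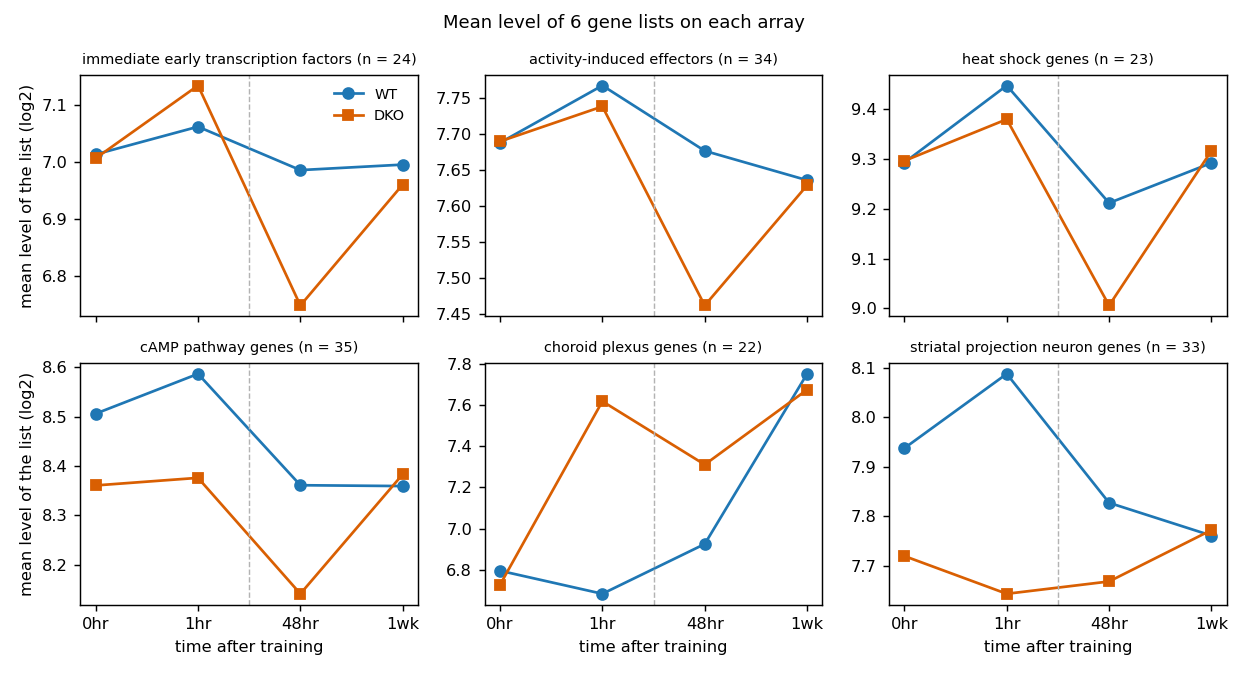
Mean level (log2, vertical axis, a separate scale in each panel) of 6 gene lists on each array by time after training (horizontal axis, dashed line between early and late), with blue circles for WT and orange squares for DKO and n the genes measured. The 4 panels of signalling and chaperone genes have their lowest point on the DKO 48 hr array, and choroid plexus genes run from 6.68 to 7.75.

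The cAMP pathway, which the DKO mice lack in part, was represented by 35 measured genes of 38. A change below 0 was found for 33, and the late arrays lay below all early arrays in 2 (5.71%), which were Akap5 and Pde2a, against 3.56% of all genes. On the quantile scale 1 did (2.86%, against 2.37%), so the count was close to the share of all genes. The median was -0.16, at -0.15 in WT and -0.12 in DKO, and -0.06 on the quantile scale. Akap5, the anchor that holds protein kinase A and calcineurin at postsynaptic sites, was at 9.64 and 9.55 in WT and 9.44 and 9.41 in DKO early and at 9.29 and 9.20 in WT and 8.96 and 9.16 in DKO late. No late array reached an early one and the change was -0.36, at -0.35 in WT and -0.37 in DKO, and -0.23 on the quantile scale, with a limma p of 0.00086 before adjustment. Pde4d, a cAMP phosphodiesterase, was at 7.70 to 8.07 early and 7.38 to 7.59 late in the transcript cluster with the smallest p (change -0.38), while its 3 transcript clusters ran from -0.38 to -0.02. The phosphodiesterase genes Pde2a and Pde1b had changes of -0.17 and -0.27, the regulatory subunits Prkar2a and Prkar2b of protein kinase A -0.33 and -0.23, and Creb1 -0.17. Adcy8 (-0.01) and Adcy1 (-0.02) lay near 0 and had no fixed direction, Adcy1 being at 0.08 on the quantile scale.

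Genes of calcium and calmodulin signalling were below 0 in 26 of 26 measured, and in 4 (15.4%, against 3.56% of all genes) the late arrays lay below all early arrays. On the quantile scale these were 2 (7.69%, against 2.37%). The median level of this list was 8.86. In the strongest of 5 groups of genes by level, from 8.24 up, 9.13% had late arrays below all early arrays as deposited. The 4 were Ppp3r1, the regulatory subunit of calcineurin, at 9.77 to 10.13 early and 9.46 to 9.73 late (-0.29), the kinase gene Camk1g (-0.24) and the calcium sensors Hpcal4 (-0.24) and Ncald (-0.19). The median was -0.12, the same as that of all genes weighted to the same levels, and it was -0.02 on the quantile scale. For MAP kinase genes (14 of 16 below 0) the median was -0.17, against -0.10 for all genes weighted to their levels, and -0.04 on the quantile scale. For voltage-gated sodium and calcium channels (22 of 23) these values were -0.11, -0.07 and -0.02. For synaptic vesicle and SNARE genes (25 of 27) they were -0.10, -0.11 and -0.03. Synaptic vesicle genes, at a median level of 8.91, had late arrays below all early arrays in 6 members (22.2%) as deposited. This compares with 3.56% of all genes and 9.13% of genes in the strongest of 5 groups by level. On the quantile scale it was 1 (3.7%, against 2.37%). Scn2a, the sodium channel of the axon initial segment, kept a difference of -0.25 on that scale. It was at 9.59 to 9.95 early and 9.16 to 9.54 late, a change of -0.38 with no overlap, and 13 of its 14 transcript clusters were below 0, 6 of them with late arrays below all early arrays. The kainate receptor gene Grik3 (8.13 to 8.32 early, 7.81 to 7.97 late, change -0.30) and the acetyltransferase gene Kat2b (6.78 to 7.06 early, 6.30 to 6.70 late, change -0.34) did not overlap either. Homer3 lay in the other direction, at 7.07 to 7.35 early and 7.42 to 7.64 late, a change of 0.35.

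Heat shock genes of the cytosol and mitochondria were measured for 23 of 26, and 19 had a change below 0. In 3 (13%, against 3.56% of all genes), Dnajb1, Hspa8 and Hspd1, the late arrays lay below all early arrays, and on the quantile scale in 2 (8.7%, against 2.37%). The median was -0.16, against -0.10 for all genes weighted to the same levels, and -0.06 on the quantile scale. The median level of the list was 9.55, and in the strongest of 5 groups of genes by level 9.13% had late arrays below as deposited. Dnajb1, the inducible partner of Hsp70, was at 7.80 and 8.21 in WT and 7.64 and 7.94 in DKO early and at 7.44 and 7.58 in WT and 7.29 and 7.54 in DKO late. It was highest at 1 hr and lowest at 48 hr in both genotypes, with a change of -0.44, at -0.37 on the quantile scale. Hspa8, the constitutive Hsp70, was at 12.10 to 12.22 early and 11.75 to 12.06 late (-0.24). Hspd1, the mitochondrial chaperonin, separated only as the average of its 2 transcript clusters, of which one was at 9.48 to 9.66 early and 9.21 to 9.49 late (-0.17). Of clock genes, 20 of 21 had a change below 0 (95.2%, against 55.2% of all genes). The groups separated in 0 of 21, against 3.56% of all genes with late arrays below and 1.37% above. The median was -0.12, against -0.07 for all genes weighted to the same levels, and -0.06 on the quantile scale. The clock output Dbp (-0.09) and Per1 (0.07) overlapped between early and late. Of 26 measured glucocorticoid response genes 18 were below 0, and 3 had late arrays below all early arrays, Tiparp, Dusp1 and Mt2 (11.5%, against 3.56% of all genes). On the quantile scale it was 1 (3.85%, against 2.37%), and the median was -0.12 as deposited and -0.07 on that scale. Fkbp5, a co-chaperone of the glucocorticoid receptor, was at 6.84 and 7.30 in WT and 6.79 and 7.06 in DKO early and 6.71 and 6.72 in WT and 6.53 and 6.94 in DKO late. Fkbp5 was highest at 1 hr in both genotypes, with a change of -0.27 and an overlap through the DKO 1 wk array.

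Zinc finger protein genes, a large family of DNA-binding repressors and activators, had an uneven count on both scales. Of 350 genes 254 had a change below 0, 28 (8.0%) had late arrays below all early arrays and 3 (0.857%) above, against 3.56% and 1.37% of all genes. On the quantile scale these were 26 (7.43%) and 3, against 2.37% and 2.0%. The median was -0.08, at -0.05 in WT and -0.11 in DKO, and -0.05 on the quantile scale. The list mean was 6.94 to 6.98 on the early arrays and 6.75 to 6.92 on the late arrays. Without the DKO 48 hr array 30 of the 350 genes lay below and 8 above, against 3.75% and 3.89% of all genes. Beside Zfp763 the smallest p-values were those of Zfp62 (-0.38) and Zfp455 (-0.47), and Zfp747 (0.35) was among the 3 in the other direction. The genes of this family share long stretches of sequence, so probes of one can pick up another, and the part of this in the count was not tested. Cytosolic ribosomal protein genes and respiratory chain genes had opposite directions on the 2 scales. Of 62 respiratory chain genes 52 were below 0 as deposited with a median of -0.06 and 0 without overlap, while on the quantile scale the median was 0.05 and 7 (11.3%, against 2.0% of all genes) had late arrays above all early arrays. Of 64 ribosomal genes 49 were below 0 with a median of -0.05, and 2 (3.12%, against 3.56% of all genes) had late arrays below. On the quantile scale the median was 0.03, with 6 (9.38%, against 2.0%) above and 1 (1.56%, against 2.37%) below. Receptors of smell, pheromones and taste lay near the bottom of the array at a median level of 4.68. Late arrays lay above all early arrays in 47 of 1233 (3.81%) and below in 2 (0.162%), against 1.37% and 3.56% of all genes. In the weakest of 5 groups of genes by level these shares were 3.26% and 0.401%, near those of the list. On the quantile scale the list had 27 above (2.19%) and 14 below (1.14%), against 2.0% and 2.37% of all genes. Their median was 0.06, at 0.13 in WT and 0.00 in DKO, and 0.02 on the quantile scale.

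Among 298 microRNA genes the late arrays lay below all early arrays in 6 (2.01%) and above in 6 (2.01%), against 3.56% and 1.37% of all genes. The array reports the hairpin region of each gene, and its values are not those of the mature microRNA. Mir154 and Mir329 were among the 10 genes with the smallest p-values lower late. Mir154 was at 6.16 and 5.93 in WT and 6.00 and 5.95 in DKO early and at 5.36 and 5.70 in WT and 5.53 and 5.58 in DKO late, a change of -0.46. Mir329 was at 6.76 and 6.99 in WT and 6.73 and 6.85 in DKO early and at 6.30 and 6.53 in WT and 6.45 and 6.26 in DKO late, a change of -0.45. Neither gene overlapped, and on the quantile scale the changes were -0.51 and -0.46. Both belong to the imprinted microRNA cluster of chromosome 12, whose members are expressed mainly in the brain and from the maternal chromosome. Their mature sequences from RefSeq (GRCm38.p6), with the seed (bases 2 to 8) in capitals, are shown with those of Mir381 and Mir494, which lay in the same cluster without overlap in opposite directions.
mmu-miR-154-5p: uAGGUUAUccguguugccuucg
mmu-miR-154-3p: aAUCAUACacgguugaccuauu
mmu-miR-329-5p: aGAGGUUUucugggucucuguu
mmu-miR-329-3p: aACACACCcagcuaaccuuuuu
mmu-miR-381-3p: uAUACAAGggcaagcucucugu
mmu-miR-494-3p: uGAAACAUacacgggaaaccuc
No seed was shared among these 6. The Mir381 gene was at 4.51 to 4.64 early and 4.42 to 4.50 late (change -0.09), and the Mir494 gene at 4.06 to 4.20 early and 4.23 to 4.40 late (change 0.17), both near the bottom of the array. The cluster was looked at as a whole only after these values were seen. Within 400 kb of Mir329, 39 measured microRNA genes started between 109571990 and 109743418 on chromosome 12, of which 27 had a change below 0 (69.2%), 3 had late arrays below all early arrays (7.69%) and 1 above. Of all 298 microRNA genes 36.6% were below 0 and 2.01% had late arrays below, and of all genes 55.2% and 3.56%. The 3 were Mir329, Mir154 and Mir381, which are also part of the 2.01%. Since Mir329 and Mir154 led to this window, its count without overlap cannot be weighed against those shares. The median change of the 39 genes was -0.09, at -0.02 in WT and -0.07 in DKO.

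The half-site TGACG was present in the promoters of 236 of 577 genes with late arrays below all early arrays (40.9%), of 36 of 210 genes in the other direction (17.1%) and of 28.0% of 15614 measured genes with a promoter sequence. The palindrome was present in 4.51%, 1.43% and 2.72% of the same sets. The E-box CACGTG was present in 13.5%, 9.52% and 9.5%, and the heat shock element in 6.07%, 9.52% and 7.94%. The genes lower late were for the most part strongly expressed ones, with 9.13% of genes in the strongest of 5 groups by level and 0.401% in the weakest among them, and the sets were not matched on level or base composition. Of 25 activity-induced effectors with a promoter sequence 4 held the palindrome (16%), among them Pcsk1 and Dusp1, and 15 the half-site (60.0%). The E-box was in 10 of these 25 (40.0%). Of 17 immediate early factors 12 held the half-site (70.6%) and 1 the palindrome. Of 19 heat shock genes 11 held the heat shock element (57.9%) and 12 the half-site (63.2%). Of 29 cAMP pathway genes 15 held the half-site (51.7%), and of 17 clock genes 5 the E-box (29.4%).

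Markers of neighbouring structures differed between arrays. Choroid plexus genes, which mark the secretory epithelium of the ventricles, were measured for 22 of 25 and had a change above 0 in 22 of 22, with a median of 0.36, at 0.50 in WT and 0.23 in DKO and at 0.35 on the quantile scale. Ttr, the thyroxine carrier made by that epithelium, was at 11.17 and 11.03 in WT and 10.14 and 13.08 in DKO early and at 11.56 and 13.20 in WT and 12.68 and 13.17 in DKO late. The DKO 1 hr array was as high as the 1 wk arrays, and the WT 48 hr array was close to the early ones, so 0 of the 22 genes separated late from early. Of all genes 55.2% had a change below 0, 3.56% separated with late arrays below and 1.37% with late arrays above. For lists as short as those of this paragraph, 0 is near those shares. Averaged over the list, levels were 6.80, 6.73 and 6.68 on the WT 0 hr, DKO 0 hr and WT 1 hr arrays and 7.62 on the DKO 1 hr array, and 6.93, 7.31, 7.75 and 7.68 on the WT 48 hr, DKO 48 hr, WT 1 wk and DKO 1 wk arrays. Sostdc1, a member of this list, had its highest levels on the WT 1 wk and DKO 1 wk arrays and its lowest on the WT 1 hr array. The part of this tissue in the other values was not tested. Meningeal, fibroblast and smooth muscle genes had a change above 0 in 22 of 24, with a median of 0.09, at 0.21 in WT and 0.01 in DKO and 0.08 on the quantile scale, and 0 separated late from early. Hippocampus-enriched genes (23 measured) had a median of 0.01, at 0.17 in WT and -0.13 in DKO and 0.08 on the quantile scale, and ependymal and motile cilia genes (26 measured) one of 0.05, at 0.19 in WT and -0.09 in DKO. Striatal projection neuron genes were measured for 33 of 36, with a median of -0.11, at -0.22 in WT and 0.05 in DKO. Their mean was 7.94 and 8.09 on the WT early arrays, 7.72 and 7.64 on the DKO early arrays and 7.67 to 7.83 on the late arrays, and none of their members separated late from early. Amygdala neuron genes (28 of 30 measured) had a median of -0.14 and -0.05 on the quantile scale, and 0 of them separated late from early. Astrocyte, microglial and endothelial lists had medians of -0.09, -0.07 and -0.07, at -0.02, -0.04 and -0.04 on the quantile scale, and the oligodendrocyte list one of -0.06 that was 0.02 on that scale.

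Changes of each genotype rest on 2 late and 2 early arrays and are given as values. At least 1.5-fold differences were found in WT for 94 transcript clusters higher (0.326%) and 197 lower (0.683%) and in DKO for 62 higher (0.215%) and 10 lower (0.0347%). One measurement repeated in 50 transcript clusters, described below, is 50 of the 197 and 50 of the 62. With identical values taken once, the counts were 93 higher and 128 lower in WT and 13 higher and 9 lower in DKO. Over genes these were 48 higher and 42 lower in WT and 8 higher and 3 lower in DKO, and on the quantile scale 29 and 71 in WT and 10 and 1 in DKO. The SD of the changes over all transcript clusters was 0.22 in WT and 0.13 in DKO. Among transcript clusters with 1 gene symbol, the largest differences lower late in WT were those of Pgap1 (-1.21), a deacylase of GPI anchors, the microRNA genes Mir384 (-1.05) and Mir376a (-0.98), and Adgrl2 (-0.96), a latrophilin. Pgap1 was at 7.78 and 8.60 in WT early and 6.92 and 7.04 in WT late, and at 7.80 and 7.10 in DKO early and 7.29 and 7.66 in DKO late. The WT 1 hr array stood highest for it, and DKO showed a difference of 0.02. In DKO the microRNA gene Mir543 (-0.68), Egr2 (-0.64) and Nr4a2 (-0.58) were among the largest of these lower late. The largest of these higher late were those of the choroid plexus genes Ttr (1.28 in WT, 1.32 in DKO) and Ecrg4 (1.17 and 0.94), and the neuropeptide gene Gal had 0.76 in DKO and -0.36 in WT.

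**Figure D4:**
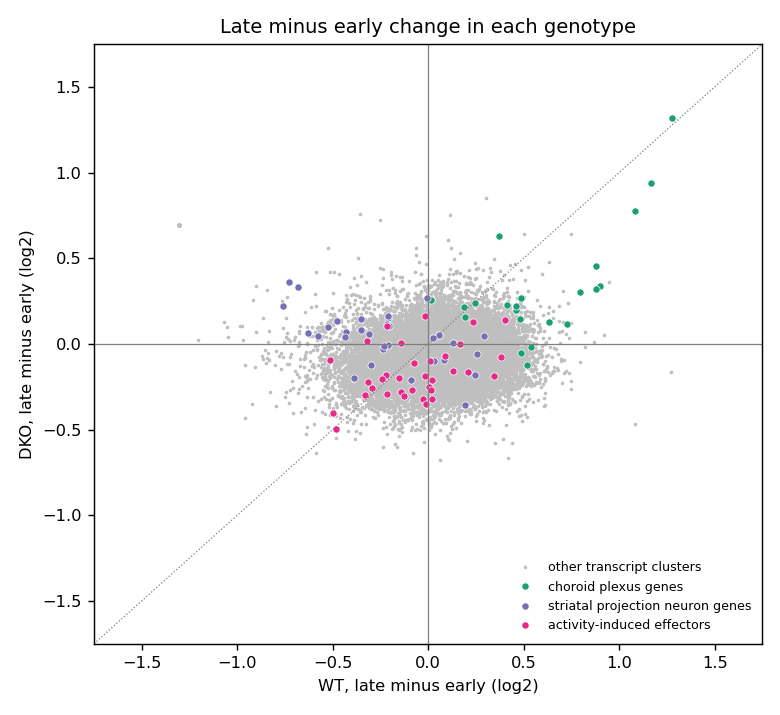
Late minus early change (log2) in WT (horizontal axis) and DKO (vertical axis) of every transcript cluster (grey) with members of 3 lists in colour and the diagonal dotted. Choroid plexus genes reach 1.28 in WT and 1.32 in DKO, and striatal genes lie mostly left of 0 in WT, with Rgs9 at -0.73 in WT and 0.36 in DKO.

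The difference between the genotypes in the change was tested as an interaction. It passed an adjusted p of 0.05 in limma for 50 transcript clusters with a higher change in DKO (0.173%) and 3 with a lower one (0.0104%). The 50 hold identical values on every array and have no gene symbol, so they are 1 measurement. It was at 6.70 and 7.03 in WT and 5.87 and 5.65 in DKO early and at 5.64 and 5.48 in WT and 6.74 and 6.16 in DKO late. WT was above DKO early and below it late, and the difference in change was 1.99 with a standard error of 0.25. Its limma p was 1.5e-06 before adjustment, and the adjusted p of 0.000878 counts this measurement 50 times. The only one of the 53 with a gene symbol was Tmem189, which makes plasmenyl lipids. It was at 7.27 and 7.41 in WT and 7.90 and 7.94 in DKO early and at 7.68 and 7.87 in WT and 7.30 and 7.38 in DKO late. The order of the genotypes was again reversed between early and late, with changes of 0.44 in WT and -0.58 in DKO and an adjusted p of 0.0207. A transcript cluster without a symbol was at 6.50 and 6.10 in WT and 7.30 and 7.25 in DKO early and at 7.69 and 7.45 in WT and 7.27 and 6.95 in DKO late (difference -1.44, adjusted p 0.00783). The other without a symbol had changes of 0.61 in WT and -0.29 in DKO (adjusted p 0.0419). These calls rest in part on the 50 identical transcript clusters being counted 50 times in the adjustment. With identical values taken once, that 1 measurement still passed and the other 3 did not. Tmem189 failed the limit under 13 of 17 alternatives, with adjusted p-values of 0.0182 to 0.367 in limma and a difference of -1.11 to -0.84 that kept its direction. At an unadjusted p under 0.05 there were 398 with a higher (1.38%) and 3207 with a lower change in DKO (11.1%). These counts are on the deposited scale, where the median change over all transcript clusters was 0.05 in WT and -0.08 in DKO. The part of that shift of whole arrays in the counts was not tested.

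The genes next in order of p did not pass. The 4 others with a lower change in DKO were Ankub1, Ifnl2, 1700116B05Rik and Snord15b. Ifnl2, which codes for a type III interferon, was at 7.88 and 7.89 in WT and 8.30 and 8.30 in DKO early and at 8.38 and 8.42 in WT and 8.01 and 8.0 in DKO late, a difference of -0.82 (adjusted p 0.070). Ankub1 was at 5.46 and 5.52 in WT and 5.97 and 6.10 in DKO early and at 6.02 and 5.74 in WT and 5.40 and 5.56 in DKO late, a difference of -0.95 (adjusted p 0.070). The gene 1700116B05Rik and the small nucleolar RNA gene Snord15b had differences of -0.85 and -0.78 (adjusted p 0.098 and 0.105). In all 4 both DKO arrays were above both WT arrays early and below them late. Of the 5 with the smallest p and a higher change in DKO, Adamts3, a procollagen protease, came first. It was at 7.03 and 7.48 in WT and 6.22 and 6.41 in DKO early and at 6.57 and 6.25 in WT and 6.51 and 6.75 in DKO late, so that the genotypes were apart early and overlapped late, with a difference of 1.16 (adjusted p 0.099), while its 16 transcript clusters ran from 0.08 to 1.16. Rgs9, the striatal regulator of G protein signalling, was at 9.20 and 9.77 in WT and 8.44 and 8.48 in DKO early and at 8.85 and 8.66 in WT and 8.76 and 8.90 in DKO late. WT exceeded DKO early by more than the late arrays differed among themselves, and the difference in change was 1.09 (adjusted p 0.13). Pde10a, the phosphodiesterase of striatal neurons, was at 9.75 and 10.18 in WT and 9.04 and 8.98 in DKO early and at 9.38 and 9.03 in WT and 9.19 and 9.28 in DKO late, with a difference of 0.98 (adjusted p 0.18). Hmcn1 (0.91, adjusted p 0.156) and the glycine receptor gene Glra3 (1.02, adjusted p 0.158) lay between these 2 in order, and the 77 transcript clusters of Hmcn1 ran from -0.53 to 0.91 in this difference. Rgs9 and Pde10a are members of the striatal list, whose mean was highest on the WT early arrays, and the part of that tissue in the genotype difference was not tested. Nts, the neurotensin gene and another of the RT-PCR genes, was at 9.19 and 9.79 in WT and 9.36 and 8.50 in DKO early and at 8.69 and 9.26 in WT and 9.14 and 9.56 in DKO late, with changes of -0.52 in WT and 0.42 in DKO that left -0.05 over both. Taf2, a subunit of the general factor TFIID and also on that RT-PCR list, was at 8.43 and 8.81 in WT and 8.28 and 8.47 in DKO early and at 8.07 and 8.25 in WT and 7.85 and 8.35 in DKO late. The DKO 1 wk array overlapped the early arrays for Taf2, and the change was -0.37. Syt10, a synaptotagmin of that list, had a change of -0.13.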

How the data were processed

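RNA of micropunches from 5 to 10 mice was pooled per Affymetrix Mouse Gene 1.0 ST array, 1 array standing for each condition. The authors normalized the arrays by RMA in the Affymetrix Expression Console and deposited log2 values of 28853 transcript clusters, which are per the labels already corrected for background, quantile-normalized at the probes and summarized. The version of the console and the genome build of the annotation are not given in the sources used here. RMA pulls small differences together, and the number of arrays limits the precision.

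The 4 late and 4 early amygdala arrays entered lmFit and eBayes of limma 3.58.1 (R 4.3.3) with genotype as covariate, and the difference between genotypes as an interaction of 4 groups with 2 arrays each. Benjamini-Hochberg adjustment ran over all transcript clusters with a limit of 0.05. The test was checked on simulated data. Gene names were used where a transcript cluster had 1 symbol (21789 of 28853), and 999 genes had several. Lists were summarized over gene means. The named genes were the 10 with the smallest p in each direction, up to 6 members per list, the 5 smallest p per direction for the genotype difference, Adcy1, Adcy8 and the RT-PCR genes, of which Enpp2 was not matched to a transcript cluster of its own. Members and the 54 lists, of which 53 had measured genes, were chosen with earlier results of these data known. Nothing shows that the time points of a period are equivalent, so p-values measure only the spread between these arrays. Alternatives were other scalings, a level filter, array weights, covariates, single late times, leaving out each array and, for the difference between genotypes, the time point as a block. MicroRNA genes were matched by gene ID (258 of 298).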

Additional observations from a re-analysis of the deposited data

Results flagged for a closer look

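Over the named genes and the lists, 180 groups of 4 arrays were searched for an array far from the other 3, and 18 were found, while chance alone flags about 5% of groups. In 12 of the 18 the DKO 48 hr array was the lowest of the late arrays. This held for the list means of immediate early transcription factors (6.75), cAMP pathway genes (8.14), NMDA, AMPA and kainate receptor subunits (8.15), metabotropic glutamate receptors (8.32), neurotrophins and their receptors (7.24), extracellular matrix and perineuronal net genes (7.09), oligodendrocyte genes (7.95), their precursors (7.29), astrocyte genes (8.58), microglia and immune genes (6.81), meningeal, fibroblast and smooth muscle genes (6.62) and zinc finger proteins (6.75). The same array had the lowest spread of levels of the 8. Among the early arrays the DKO 1 hr array was far above the others for neurotrophins and their receptors (7.44) and choroid plexus genes (7.62), and the WT 1 hr array was far below for monoamine and acetylcholine receptors (7.05) and far above for respiratory chain genes (10.65). Of single genes, A530064D06Rik stood apart early on the WT 0 hr array (5.38) and Htra4 on the DKO 0 hr array (7.23).

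The late minus early change differed between the genotypes for the 50 identical transcript clusters without a symbol (1.99 higher in DKO) and for Tmem189 (-1.02). It differed also for 2 others without a symbol (-1.44 and -0.90).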

How the results depend on the processing

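The comparison has 1 array per condition, so arrays left out also remove a time point of a genotype. For late versus early, 0 transcript clusters passed in either direction under most alternatives and with any 1 array left out (0 to 0). Exceptions were array weights, with 1284 higher and 1429 lower, where the weight of 1 array reached 18.36 and another stood at 0.236, the striatal list as covariate with 2 lower, and 48 hr alone against early with 2 lower. The cause was not tested. At a limit of 0.1 there were 165 higher and 1056 lower without the DKO 1 wk array. For the difference between genotypes, transcript clusters with a higher change in DKO were 50 to 56 with an array left out. There were 0 in a fit with all 16 post-training arrays and 1 with identical values taken once, an alternative chosen after seeing the data. Among those above the median level there were 0, but that filter removes the 50 identical transcript clusters before testing and so does not check them. Those with a lower change were 0 to 3 with an array left out (0 without WT 1 hr, 1 without WT 48 hr and 1 without WT 1 wk), 1 above the median level, 0 after quantile normalization, 1 after centring, 5 with a variance trend and robust fitting, 0 with all 16 arrays, 0 with identical values taken once and 7 at a limit of 0.1. Genes higher late without overlap numbered 273, and 776 without the DKO 48 hr array. Under the alternatives 482 values of named genes kept direction and side of the limit, 21 passed the limit under array weights and 22 turned. The genes that turned were Adcy1, Adcy8, Nts and Syt10. Adcy1 was 0.0757 after quantile normalization, 0.0144 at 48 hr alone and -0.1075 to 0.05 with an array left out. Adcy8 was 0.0559 with the striatal list, 0.0139 with the choroid plexus list, 0.0373 at 1 wk alone and -0.096 to 0.0401 with an array left out. Nts was 0.0799 after quantile normalization, 0.2813 with the striatal list, 0.0786 with the choroid plexus list, 0.1988 at 1 wk alone and -0.3135 to 0.1652 with an array left out. Syt10 was 0.001 after quantile normalization, 0.0584 with the striatal list and 0.0689 at 1 wk alone. Of 319 named transcript clusters, list members included, 8 turned on the quantile scale, from changes of -0.13 to -0.02. For the difference between genotypes WT and DKO arrays share time points, and with the time point as replicate block, chosen after seeing the data, 50 were higher and 2 lower, or 1 and 0 with identical values taken once as well. Late versus early has no such pairing, since no time point is both.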
